A study of Homo sapiens with 4 samples.

Results

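The 52 genes described here encode soluble hydrolases of the lysosome, cofactors of these enzymes, lysosomal membrane proteins and the receptors that sort hydrolases to the organelle. They were chosen as a list of symbols for their function, with earlier results of these data known. Each of the 52 matched 1 of the 48162 Ensembl genes in the deposited table of raw counts. All 52 passed the filter on low counts. RNA was sequenced from 2 libraries of cells with genotype TMEM9 KD and 2 libraries of wild-type cells (WT), all labelled as the human breast cancer line MDA-MB-453. TMEM9 encodes a transmembrane protein found in lysosomes and late endosomes. The series' design text also calls the RNA retinal, which goes against the labelled line. Treatment, time, knockdown reagent and whether the cells were a clone or a pool are not stated in the labels. Nothing states that replicates were separate cultures. The p-values therefore cover the spread of the sequenced libraries alone, and that spread could be technical.

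Most lysosomal hydrolases are made in the endoplasmic reticulum as inactive precursors, receive mannose 6-phosphate in the Golgi, and are carried by mannose 6-phosphate receptors to endosomes. The acidic lumen then activates them, and they break down proteins, glycans, sulfated sugars and lipids. Heavily glycosylated membrane proteins line the organelle, and transporters and channels of its membrane export the products. Many of these genes carry a shared promoter element, the CLEAR element, bound by the transcription factors TFEB and TFE3.

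Counts in genes ran from 15960941 to 17065126 in TMEM9 KD and from 15323843 to 18517337 in WT. TMEM9 (ENSG00000116857) had 51 and 78 counts in the TMEM9 KD libraries, against 1120 and 1497 in the WT libraries. Its log2 fold change, here always TMEM9 KD over WT, was -4.37 (SE 0.126, edgeR quasi-likelihood adjusted p = 4.12e-52). Mitochondrially encoded transcripts took 3.18% and 2.83% of counts in TMEM9 KD, against 3.98% in each WT library. The labelled cell type was checked with 16 luminal and apocrine breast markers. KRT8, KRT18, ERBB2 and XBP1 were well covered, but 8 of the 16 did not pass the filter. PIP and SCGB2A2 had 0 counts in all 4 libraries. Of the 8 that passed, 3 fell and 3 rose, or 37.5% each, against 29.0% lower and 28.7% higher of all genes tested. Among those that rose, FOXA1 and GATA3 rose at least 2-fold. FOXA1 had 123 and 144 counts in TMEM9 KD, against 44 and 49 counts in WT. GATA3 had 97 and 119 counts in TMEM9 KD, against 30 and 56 counts in WT. EPCAM had 12 counts over both TMEM9 KD libraries and 13 over both WT libraries, and CDH1 had 8 in TMEM9 KD and 6 in WT. The 8 basal markers summed to 553 and 558 CPM in TMEM9 KD, against 932 and 939 CPM in WT. CPM is the usual scaling of counts to library size, here with TMM factors. ITGA6 held most of these sums, with 431 and 432 CPM in TMEM9 KD, against 504 and 510 CPM in WT. All 8 were called lower, 6 of them at least 2-fold, with a median log2 fold change of -3.92. Of all genes tested, 29.0% were called lower and 10.1% were called and at least 2-fold lower. KRT5 and KRT14 had 0 counts in both TMEM9 KD libraries. KRT6A had 0 and 2 counts in TMEM9 KD, against 70 and 128 counts in WT. KRT5, KRT14 and KRT6A thus passed the filter through WT. Their direction was largely set by the filter, and the count and median of the basal markers rest partly on them. Of the 9 fibroblast markers, 4 fell, 4 rose and COL1A2 did not pass the filter. COL3A1 had 27.7 and 34.5 CPM in TMEM9 KD, against 947 and 966 CPM in WT, while COL1A1 had 1300.0 and 1473 CPM in TMEM9 KD, against 815 and 832 CPM in WT. In bulk RNA, fewer cells of a type and less RNA per cell cannot be told apart.

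Lysosomal genes were more often lower than higher in TMEM9 KD. Of the 52, 29 fell, 10 rose and 13 did not pass the test (edgeR quasi-likelihood F test, Benjamini-Hochberg adjusted p below 0.05 over 14923 genes). Across all genes tested, 57.7% passed, with 29.0% lower and 28.7% higher, while among the lysosomal genes 55.8% were lower and 19.2% higher. The median log2 fold change of the 52 genes was -0.28, against 0.01 over all genes. Values of the TMEM9 KD and WT libraries did not overlap in 46 of the 52 genes, or 88.5%, where 77.6% of all genes had groups that did not overlap. Most lysosomal genes are well expressed, and 49 had a mean of at least 5 CPM. With the test restricted to genes at that level, 55.1% of those 49 were lower and 20.4% higher, against 31.6% lower and 31.9% higher of 10822 genes.

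The changes were mostly small. Of the 29 genes that fell, 17 had a log2 fold change between -0.5 and 0, 6 fell by between 0.5 and 1 on the log2 scale, and 6 fell at least 2-fold. The 6 genes make up 11.5% of the list, against 10.1% of all genes that were called and at least 2-fold lower. GALC was the 1 gene to rise at least 2-fold, or 1.92% of the list, against 7.24% of all genes. The other 9 that rose had log2 fold changes below 0.5. Tested against a change of 1.5-fold, 7 of the 52 were lower and 1 was higher, against 11.3% and 7.44% of all genes.

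**Figure D1:**
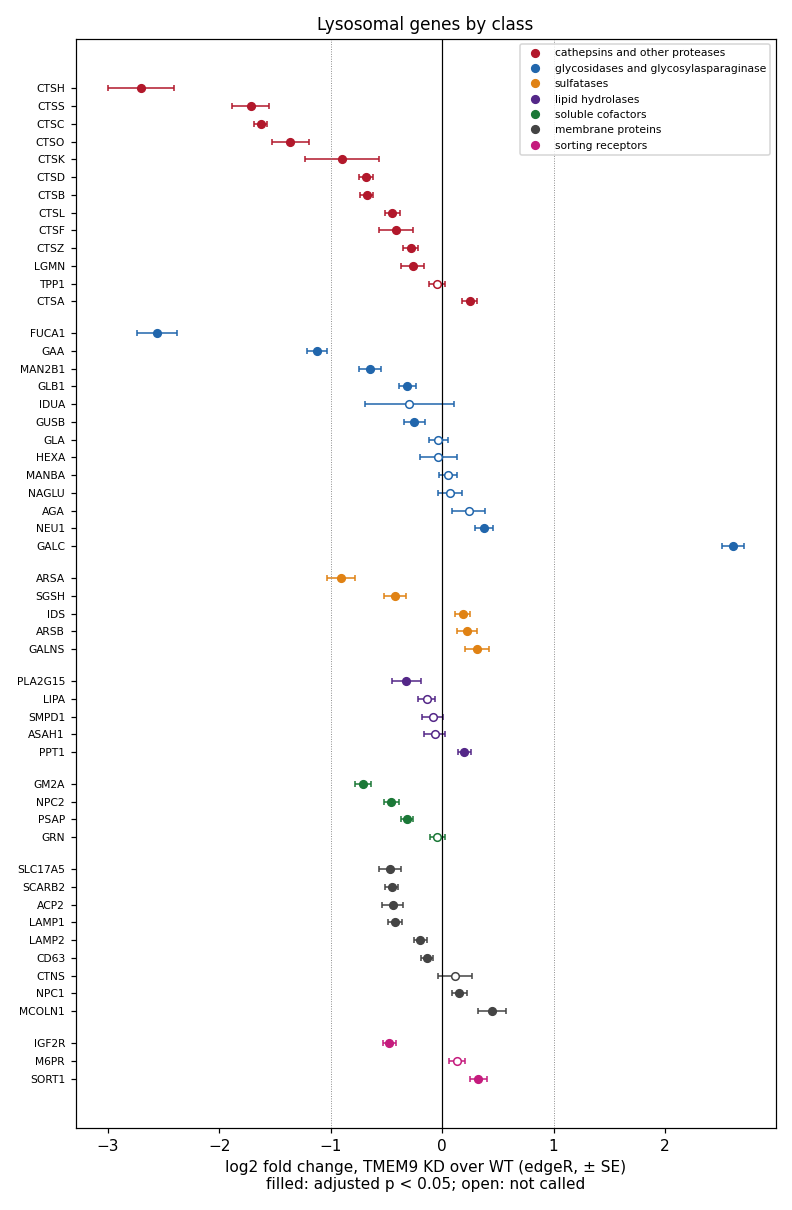
Log2 fold change of TMEM9 KD over WT (x axis) for each of the 52 genes (y axis), grouped by class, with bars of ± 1 SE from edgeR. Filled points passed adjusted p below 0.05. CTSH and FUCA1 lie farthest left, at -2.71 and -2.56, and GALC lies alone on the far right at 2.61.

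**Figure D2:**
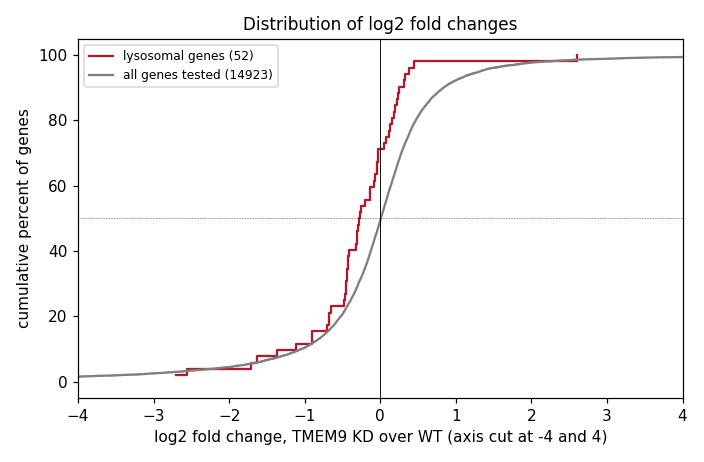
Cumulative percent of genes (y axis) against log2 fold change of TMEM9 KD over WT (x axis) for the 52 lysosomal genes and for all 14923 genes tested. The curve of the lysosomal genes lies to the left in its middle part, with a median of -0.28 against 0.01.

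Summed over the 52 genes, levels were 4938 and 5030 CPM in the TMEM9 KD libraries, against 6103 and 6246 CPM in the WT libraries. The mean sum was 19.3% below WT. Cathepsins and other proteases made up 57.5% of that difference, soluble cofactors 19.8% and sorting receptors 4.99%, and CTSC alone made up 29.4% of it. Membrane proteins summed to 1408 and 1381 CPM in TMEM9 KD, against 1611 and 1653 CPM in WT. The sums of glycosidases, sulfatases and lipid hydrolases differed little between the groups.

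**Figure D3:**
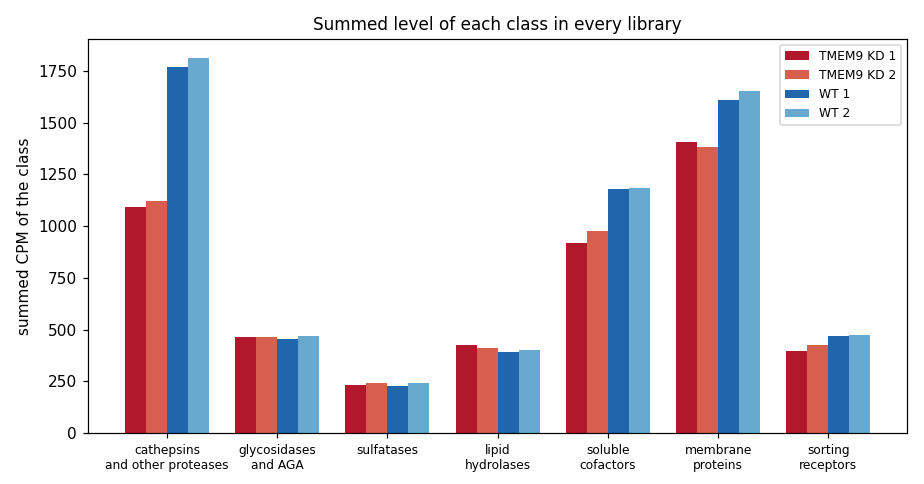
Summed CPM of each class (y axis, starting at 0) in the 2 TMEM9 KD libraries and the 2 WT libraries, in which AGA is glycosylasparaginase. The proteases summed to 1091 and 1124 CPM in TMEM9 KD, against 1769 and 1815 CPM in WT, and the glycosidases to 466 and 467 CPM, against 456 and 471 CPM.

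The promoters of the list were searched for the CLEAR element, since genes that carry it are known to be controlled together. RefSeq promoters (GRCh38.p14, 250 bases before to 50 after each start) were found for 39 of the 52 genes, in 58 entries. No entry was found for CTSB, CTSK, CTSO, CTSS, LGMN, HEXA, MANBA, NAGLU, SGSH, ARSA, ASAH1, PSAP and LAMP2. The palindromic core TCACGTGA, which reads the same on both strands, was present in 6 of the 39 genes, or 15.4%, against 1.18% of all 27305 gene symbols with a promoter and 0.98% of all 35116 promoters. The same core with a G before it and a C after it, the full CLEAR palindrome, was present in 4 of the 39, or 10.3%, against 0.421% of all symbols and 0.353% of all promoters. The shorter CACGTG inside both was present in 12 of the 39, or 30.8%, against 8.77% of all symbols and 7.26% of all promoters. Many lysosomal genes were already known to carry the element, so a higher share than in all promoters is not an independent result. A match is a description of these letters and not evidence that a factor binds there. The 6 promoters with the core are shown from 200 bases before to 10 after the start, 5′ to 3′ on the gene's strand, with the core or full palindrome in capitals, because their genes moved in opposite directions.
GAA (chr17:80101381-80101590, plus strand): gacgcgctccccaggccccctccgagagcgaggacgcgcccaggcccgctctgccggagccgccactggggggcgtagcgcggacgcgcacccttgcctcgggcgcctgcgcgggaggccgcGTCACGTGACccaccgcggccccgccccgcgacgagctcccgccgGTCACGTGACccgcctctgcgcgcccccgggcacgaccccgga
IGF2R (chr6:159968882-159969091, plus strand): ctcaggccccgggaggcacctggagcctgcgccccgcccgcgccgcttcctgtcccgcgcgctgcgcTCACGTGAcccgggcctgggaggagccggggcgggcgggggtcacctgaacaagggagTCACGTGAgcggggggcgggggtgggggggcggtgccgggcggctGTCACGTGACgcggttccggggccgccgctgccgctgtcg
LAMP1 (chr13:113297039-113297248, plus strand): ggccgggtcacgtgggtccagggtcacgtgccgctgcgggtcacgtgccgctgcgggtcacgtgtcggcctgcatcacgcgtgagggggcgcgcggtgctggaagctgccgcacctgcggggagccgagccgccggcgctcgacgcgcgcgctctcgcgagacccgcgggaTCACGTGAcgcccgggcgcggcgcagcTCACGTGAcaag
CTSA (chr20:45891135-45891344, plus strand): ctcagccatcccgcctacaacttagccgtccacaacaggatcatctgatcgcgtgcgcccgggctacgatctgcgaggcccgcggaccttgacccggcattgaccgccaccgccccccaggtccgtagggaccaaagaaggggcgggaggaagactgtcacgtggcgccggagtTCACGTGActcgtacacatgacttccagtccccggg
GALNS (chr16:88856938-88857147, minus strand): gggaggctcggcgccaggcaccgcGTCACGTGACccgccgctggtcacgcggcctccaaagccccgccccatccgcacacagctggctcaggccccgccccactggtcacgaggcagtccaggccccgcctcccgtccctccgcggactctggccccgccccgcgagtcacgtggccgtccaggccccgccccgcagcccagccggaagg
MCOLN1 (chr19:7522424-7522633, plus strand): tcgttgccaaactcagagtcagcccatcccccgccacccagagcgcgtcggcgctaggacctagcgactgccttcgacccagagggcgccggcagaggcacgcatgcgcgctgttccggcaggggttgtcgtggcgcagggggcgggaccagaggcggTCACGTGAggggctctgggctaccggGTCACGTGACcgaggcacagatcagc

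GAA, IGF2R and LAMP1 fell in TMEM9 KD, while CTSA, GALNS and MCOLN1 rose. GAA holds 2 copies of the full palindrome and fell by 1.12 on the log2 scale, and IGF2R holds 1 full palindrome and 2 further cores and fell by 0.47. LAMP1, with 2 cores, fell by 0.42, a value that turned to 0.20 with the median of its chromosome 13 removed. MCOLN1, with 1 full palindrome and 1 further core, rose by 0.45, GALNS rose by 0.32 and CTSA by 0.25. The call of GALNS ended under DESeq2, and neither GALNS nor CTSA kept its call in every alternative, as given with each gene below. Of the genes on the list called with a change of at least 2-fold, GAA held the full palindrome. The promoters of CTSC, CTSH, FUCA1 and GALC held no CACGTG in the windows searched, and CTSS and CTSO had no promoter entry. The part of the element in any of these changes was not tested.

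Most proteases fell. Of 13 genes, 11 fell, CTSA rose and TPP1 did not pass, with a median log2 fold change of -0.68. The share lower was 84.6% and the share higher 7.69%, against 29.0% and 28.7% of all genes. CTSC (ENSG00000109861, chromosome 11), a dipeptidyl peptidase known for activating serine proteases of immune granules, had 168 and 166 CPM in the TMEM9 KD libraries, against 517 and 516 CPM in the WT libraries. The groups stood far apart, and replicates differed by little. Its log2 fold change was -1.63 (SE 0.0579, edgeR adjusted p = 9.47e-45), and it made up 51.1% of the difference in the protease sum.

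CTSH (ENSG00000103811, chromosome 15), a cysteine protease with aminopeptidase activity, had 0.672 and 1.38 CPM in TMEM9 KD, against 7.62 and 6.01 CPM in WT. These values rest on 11 and 24 counts in TMEM9 KD, against 114 and 108 counts in WT. Both TMEM9 KD libraries lay below both WT libraries, with a log2 fold change of -2.71 (SE 0.296, edgeR adjusted p = 1.41e-13), which was -3.33 without TMEM9 KD replicate 2 and -2.29 without TMEM9 KD replicate 1. CTSS (ENSG00000163131, chromosome 1), an elastin-degrading cathepsin that trims the invariant chain in antigen-presenting cells, had 5.44 and 4.58 CPM in TMEM9 KD, against 16.3 and 16.6 CPM in WT. Its groups did not overlap, and the log2 fold change was -1.72 (SE 0.165, edgeR adjusted p = 4.65e-16). CTSO (ENSG00000256043, chromosome 4), another papain-like cathepsin, had 6.66 and 5.10 CPM in TMEM9 KD, against 14.0 and 16.1 CPM in WT. Its WT values were also clear of the TMEM9 KD values, and the log2 fold change was -1.36 (SE 0.165, edgeR adjusted p = 8.81e-12).

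CTSC, CTSH and CTSS are abundant in leukocytes, so leukocyte markers are given beside them. The 13 leukocyte and macrophage markers summed to 8.06 and 7.91 CPM in TMEM9 KD, against 17.5 and 18.1 CPM in WT. Of the 13, LYZ, AIF1, CD3E and MS4A1 had 0 counts in all 4 libraries, TYROBP had 1 count in all, and 8 did not pass the filter. CD14 had 0.733 and 1.66 CPM in TMEM9 KD, against 6.22 and 8.34 CPM in WT, and CD74 had 0 and 0.172 CPM in TMEM9 KD, against 4.08 and 2.78 CPM in WT, while PTPRC, the pan-leukocyte CD45 gene, rose by 0.72. Their part in the changes of the cathepsins was not tested.

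Among the other proteases, CTSZ, a carboxypeptidase, had the highest level per length. It had 158 and 181 CPM in TMEM9 KD, against 206.5 and 206.7 CPM in WT, and fell by 0.28 on the log2 scale. The aspartic protease CTSD had 144 and 161 CPM in TMEM9 KD, against 237 and 251 CPM in WT, and fell by 0.68. The cysteine protease CTSB, with 258 and 258 CPM in TMEM9 KD, against 403 and 423 CPM in WT, also fell by 0.68. For each of these 3 genes the TMEM9 KD libraries were both below the WT libraries. CTSD shares 41.7% of its exon bases with another gene on the same strand in GENCODE 29, so its reads could be split or left out by the authors' counting.

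CTSL, a broad endopeptidase, fell by 0.45, CTSF by 0.41, and LGMN, which cleaves after asparagine, by 0.27 on the log2 scale. The calls of CTSF and LGMN ended under DESeq2, with library size alone and without WT replicate 2, and that of LGMN also without WT replicate 1 or TMEM9 KD replicate 1. CTSK, known for degrading bone collagen in osteoclasts, had 19 and 36 counts in TMEM9 KD, against 45 and 55 counts in WT, with a log2 fold change of -0.90 (SE 0.332, edgeR adjusted p = 0.0156). The call of CTSK ended under DESeq2 (adjusted p = 0.0977) and without TMEM9 KD replicate 1 (edgeR adjusted p = 0.204), WT replicate 1 (edgeR adjusted p = 0.0603) or WT replicate 2 (edgeR adjusted p = 0.082). CTSA, a serine carboxypeptidase that also protects NEU1 and GLB1 in a complex, had 132 and 129 CPM in TMEM9 KD, against 107 and 113 CPM in WT. It was higher in both TMEM9 KD libraries, with a log2 fold change of 0.25 (SE 0.0674, edgeR adjusted p = 0.00109), a call that ended without WT replicate 1 (edgeR adjusted p = 0.122). CTSA shares 28.5% of its exon bases with other genes on the opposite strand, PLTP and NEURL2 among them. The tripeptidyl peptidase TPP1 had 90.3 and 87.4 CPM in TMEM9 KD, against 89.6 and 93.6 CPM in WT, and these overlapped.

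**Figure D4:**
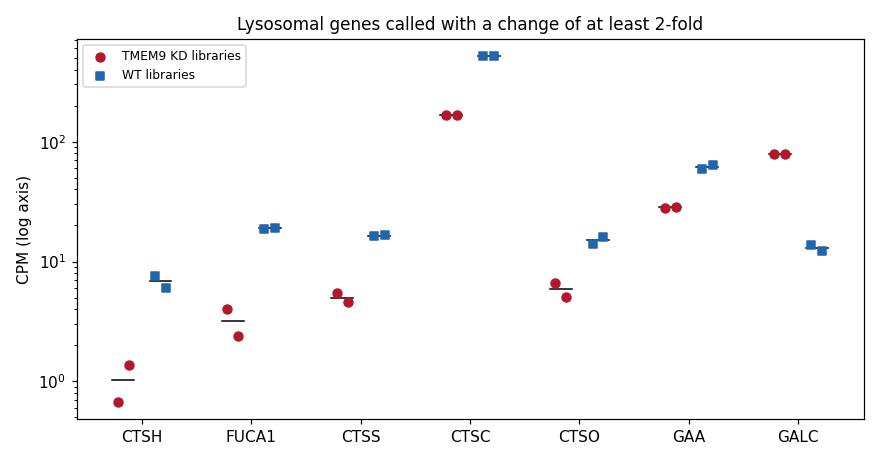
CPM on a log axis for the 7 lysosomal genes called with a change of at least 2-fold. Each point is a library, TMEM9 KD circles stand left of WT squares, and bars mark the mean of 2 libraries. The groups do not overlap for any of the 7 genes, and GALC is the one with higher TMEM9 KD values, at 78.9 and 79.0 CPM against 13.8 and 12.2 CPM.

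Glycosidases went both ways. Of 13 genes, counting the amidase AGA that cleaves the link between sugar and asparagine, 5 fell, 2 rose and 6 did not pass, with a median log2 fold change of -0.03. The share called was 53.8%, slightly under the 57.7% of all genes. GALC (ENSG00000054983, chromosome 14), which removes galactose from galactosylceramide and is mutated in Krabbe disease, had 78.9 and 79.0 CPM in TMEM9 KD, against 13.8 and 12.2 CPM in WT. Replicates lay close together and the groups far apart, with a log2 fold change of 2.61 (SE 0.0992, edgeR adjusted p = 2.17e-42). Per length, GALC ranked 24 of the 52 genes in TMEM9 KD and 48 in WT. Without GALC, the other 12 genes summed to 387 and 388 CPM in TMEM9 KD, against 442 and 458 CPM in WT.

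FUCA1 (ENSG00000179163, chromosome 1), the fucosidase deficient in fucosidosis, had 4.03 and 2.41 CPM in TMEM9 KD, against 18.6 and 19.2 CPM in WT. The WT libraries were both well above the TMEM9 KD libraries, with a log2 fold change of -2.56 (SE 0.179, edgeR adjusted p = 1.2e-23). GAA (ENSG00000171298, chromosome 17), the acid glucosidase that degrades glycogen and is deficient in Pompe disease, had 27.8 and 28.7 CPM in TMEM9 KD, against 59.5 and 63.4 CPM in WT. Its groups were likewise clear of each other, with a log2 fold change of -1.12 (SE 0.0905, edgeR adjusted p = 4.6e-20). MAN2B1, the acid alpha-mannosidase, fell by 0.65 on the log2 scale, the beta-galactosidase GLB1 by 0.31 and the beta-glucuronidase GUSB by 0.25. The call of GUSB ended under DESeq2, with library size alone and without WT replicate 1 or WT replicate 2. MAN2B1 shares 21.2% of its exon bases with another gene on the same strand.

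NEU1, the sialidase held in a complex with CTSA, had 76.5 and 78.2 CPM in TMEM9 KD, against 58.2 and 61.0 CPM in WT. Both TMEM9 KD libraries were higher, with a log2 fold change of 0.38 (SE 0.0775, edgeR adjusted p = 1.78e-05). CTSA and NEU1 thus rose, while GLB1, the third enzyme of that complex, fell. GLA, the alpha-galactosidase deficient in Fabry disease and the glycosidase with the highest level per length, had 51.7 and 51.8 CPM in TMEM9 KD, against 51.9 and 54.1 CPM in WT. Its log2 fold change of -0.03 (SE 0.0838) did not pass the test (edgeR adjusted p = 0.748). HEXA, MANBA, NAGLU, AGA and IDUA did not pass either, with log2 fold changes between -0.29 and 0.24. IDUA was the lowest of the 52 genes per length in WT and CTSH in TMEM9 KD, and IDUA had 23 and 23 counts in TMEM9 KD, against 25 and 30 counts in WT.

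The 5 sulfatases, which remove sulfate from glycosaminoglycans or sulfatide, all passed the test but in opposite directions. Of the 5, 40.0% were lower and 60.0% higher, against 29.0% and 28.7% of all genes. ARSA, the sulfatide-degrading arylsulfatase deficient in metachromatic leukodystrophy, had 13.8 and 12.6 CPM in TMEM9 KD, against 24.5 and 24.8 CPM in WT. Its groups did not overlap, and it fell by 0.90 on the log2 scale (SE 0.125, edgeR adjusted p = 8.6e-10). SGSH, which acts on heparan sulfate, fell by 0.42. GALNS, which acts on keratan sulfate and chondroitin sulfate, rose by 0.32, ARSB, which acts on dermatan sulfate, by 0.22, and IDS, which acts on heparan and dermatan sulfate, by 0.18. IDS had the highest level per length of the class, with 108 and 107 CPM in TMEM9 KD, against 90.7 and 98.8 CPM in WT. The 3 increases ended under DESeq2, with adjusted p of 0.0586 for GALNS, 0.102 for ARSB and 0.071 for IDS. Without WT replicate 1 they also ended, with edgeR adjusted p of 0.094 for GALNS, 0.495 for ARSB and 0.412 for IDS, and without WT replicate 2 those of GALNS (edgeR adjusted p = 0.0548) and IDS (edgeR adjusted p = 0.0723) ended. That of GALNS also ended without TMEM9 KD replicate 2 (edgeR adjusted p = 0.134), and that of ARSB without a filter on low counts (edgeR adjusted p = 0.0519). IDS shares 17.4% of its exon bases with other genes on the same strand.

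Lipid hydrolases changed little. Of 5 genes, PLA2G15 fell, PPT1 rose and 3 did not pass. The share called was 40.0%, under the 57.7% of all genes. PPT1, which removes palmitate from proteins and has the highest level per length of the class, had 263 and 252 CPM in TMEM9 KD, against 219 and 231 CPM in WT. Both TMEM9 KD values were higher, by 0.20 on the log2 scale (SE 0.0592, edgeR adjusted p = 0.00285), but the call ended without WT replicate 1 (edgeR adjusted p = 0.224) and without WT replicate 2 (edgeR adjusted p = 0.0576). PPT1 shares 23.4% of its exon bases with CAP1 on the opposite strand. PLA2G15, a lysosomal phospholipase, fell by 0.32, and this call ended under DESeq2 (adjusted p = 0.118) with scaling to library size alone (edgeR adjusted p = 0.0939), and without TMEM9 KD replicate 1 (edgeR adjusted p = 0.241), WT replicate 1 (edgeR adjusted p = 0.185) or WT replicate 2 (edgeR adjusted p = 0.0519). The sphingomyelinase SMPD1, the ceramidase ASAH1 and the acid lipase LIPA had log2 fold changes of -0.09, -0.07 and -0.14.

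Of the 4 soluble cofactors, 3 fell and GRN did not pass. PSAP, whose product is cut into saposins that present sphingolipids to their hydrolases, had the highest level per length of all 52 genes in both groups. It had 627 and 671 CPM in TMEM9 KD, against 805 and 808 CPM in WT, and took 12.7% to 13.3% of the summed CPM of the list in the 4 libraries. The WT libraries were both higher, and the log2 fold change was -0.31 (SE 0.0521, edgeR adjusted p = 1.73e-07). GM2A, the activator that lifts ganglioside GM2 out of membranes, fell by 0.71 on the log2 scale, and NPC2, which binds cholesterol in the lumen, by 0.46. GRN, the precursor of granulins, had 138 and 153 CPM in TMEM9 KD, against 147 and 153 CPM in WT.

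Of 9 membrane proteins, 6 fell, 2 rose and CTNS did not pass, and none changed by as much as 0.5 on the log2 scale. The share lower was 66.7% and the share higher 22.2%, against 29.0% and 28.7% of all genes. The tetraspanin CD63, highest per length of the class, had 464 and 482 CPM in TMEM9 KD, against 524 and 518 CPM in WT. It fell by 0.14, and the call ended without WT replicate 1 (edgeR adjusted p = 0.254), without WT replicate 2 (edgeR adjusted p = 0.198) and with scaling to library size alone (edgeR adjusted p = 0.293). The main glycoproteins of the lysosomal membrane were lower, LAMP1 by 0.42 and LAMP2 by 0.20. LAMP1 had 175 and 174 CPM in TMEM9 KD, against 227 and 241 CPM in WT, and lies on chromosome 13, where the 231 genes tested had a median log2 fold change of -0.62. The call of LAMP2 ended without WT replicate 2 (edgeR adjusted p = 0.156) and with scaling to library size alone (edgeR adjusted p = 0.0574).

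SCARB2, which carries glucocerebrosidase to lysosomes, fell by 0.45 on the log2 scale, the sialic acid exporter SLC17A5 by 0.47 and the acid phosphatase ACP2 by 0.45. MCOLN1, a calcium-releasing channel of the lysosomal membrane, had 19.9 and 23.6 CPM in TMEM9 KD, against 15.4 and 16.4 CPM in WT. It was higher in both TMEM9 KD libraries, by 0.45 on the log2 scale (SE 0.125, edgeR adjusted p = 0.00124). NPC1, the cholesterol exporter that takes cholesterol from NPC2, rose by 0.15 (edgeR adjusted p = 0.0463), a call that ended under DESeq2 (adjusted p = 0.119), with DESeq2 size factors, without a filter, in the replicate block, and without TMEM9 KD replicate 2, WT replicate 1 or WT replicate 2. NPC1 and NPC2, partners in cholesterol export, thus had values of opposite sign.

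Of the 3 sorting receptors, IGF2R fell, SORT1 rose and M6PR did not pass. The share called was 66.7%, where 57.7% of all genes were called. IGF2R, the large mannose 6-phosphate receptor, had 207 and 229 CPM in TMEM9 KD, against 302 and 304 CPM in WT. The groups did not overlap, and IGF2R fell by 0.47 on the log2 scale (SE 0.0592, edgeR adjusted p = 2.7e-11). SORT1, sortilin, which carries progranulin and prosaposin among others, had 77.0 and 75.7 CPM in TMEM9 KD, against 60.1 and 62.0 CPM in WT, and rose by 0.32. M6PR, the small mannose 6-phosphate receptor and the highest of the 3 per length, had 113 and 122 CPM in TMEM9 KD, against 106 and 109 CPM in WT. Its log2 fold change of 0.13 did not pass the test (SE 0.0685, edgeR adjusted p = 0.0907), although its groups did not overlap and it was called higher with library size only and without TMEM9 KD replicate 1. M6PR shares 29.3% of its exon bases with PHC1 on the opposite strand, and the labels do not state whether counting used strand.

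**Figure D5:**
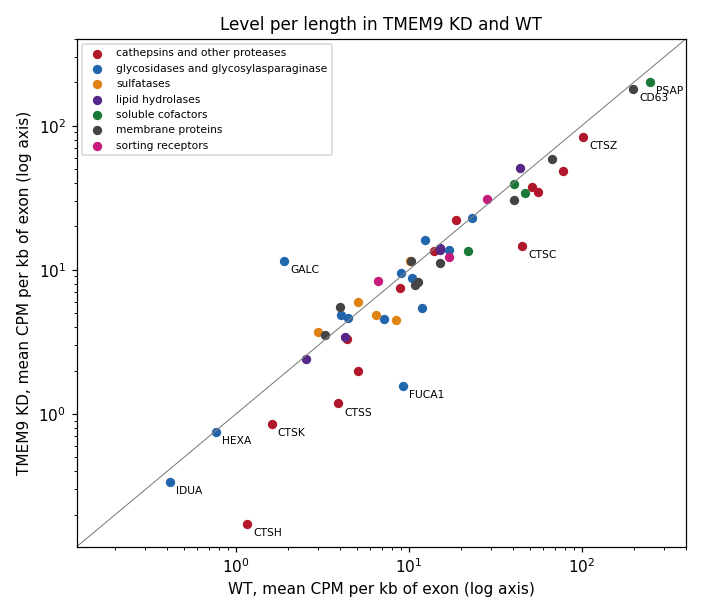
Mean CPM per kb of exon in TMEM9 KD (y axis) against WT (x axis), both on log axes, for the 52 genes colored by class, with the line of equal levels. PSAP and CD63 stand at the top in both groups, with 200.3 and 179.5 in TMEM9 KD against 249 and 198 in WT, GALC lies above the line, and CTSH, FUCA1, CTSS and CTSC lie below it.

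Levels per length ran from 0.174 CPM per kb for CTSH to 200.3 CPM per kb for PSAP in TMEM9 KD, and from 0.418 for IDUA to 249 for PSAP in WT. The order PSAP, CD63, CTSZ held at the top of both groups. CTSC ranked 16 in TMEM9 KD and 9 in WT, FUCA1 ranked 47 in TMEM9 KD and 30 in WT, and GAA ranked 35 in TMEM9 KD and 24 in WT. Lengths are all exon bases of a gene in GENCODE 29, retained introns included, and may differ from the authors' gene models.

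Among 92 other lysosomal and sorting genes that are not on the list, 84 passed the filter, of which 43 fell and 8 rose, or 51.2% and 9.52%, against 29.0% and 28.7% of all genes. The share called in either direction was 60.7%, near the 57.7% of all genes. The genes that fell include CTSV, LAPTM5, SORCS1, SERPINB3, SERPINB4 and CST1, which passed the filter through WT. Their direction was largely set by the filter, so these shares rest partly on them. Of 23 further lysosomal hydrolases tested, 10 fell and 3 rose, so that 56.5% were called. CTSV, a cathepsin close in sequence to CTSL, fell by 2.35 on the log2 scale with 0.183 and 0.516 CPM in TMEM9 KD, against 1.41 and 2.23 CPM in WT. These are 3 and 9 counts in TMEM9 KD, against 21 and 40 counts in WT, so CTSV passed the filter through WT. Its log2 fold change was -1.81 without TMEM9 KD replicate 1 and -3.28 without TMEM9 KD replicate 2. HGSNAT, an acetyltransferase of heparan sulfate breakdown, fell by 0.71. Of 25 further membrane proteins tested, 13 fell and 2 rose, so that 60.0% were called. LAPTM5, a lysosomal protein typical of blood cells, had 0.550 and 0.917 CPM in TMEM9 KD, against 27.7 and 35.4 CPM in WT. Its log2 fold change was -5.41 (SE 0.211, edgeR adjusted p = 1.82e-41). With 9 and 16 counts in TMEM9 KD, LAPTM5 also passed the filter through WT. The tetraspanin CD82 fell by 2.76 on the log2 scale and SIDT2 by 1.58.

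Of 29 genes of mannose 6-phosphate tagging, hydrolase maturation and sorting, 14 fell and 3 rose, so that 58.6% were called, near the 57.7% of all genes. SORCS1 and SORCS2, relatives of SORT1, fell by 3.80 and 1.84 on the log2 scale, and LRP1, an endocytic receptor, by 1.59. SORCS1 rests on 9 and 3 counts in TMEM9 KD, against 78 and 88 counts in WT, so it passed the filter through WT. Its log2 fold change was -4.81 without TMEM9 KD replicate 1 and -3.19 without TMEM9 KD replicate 2. Of 7 cystatins and other cathepsin inhibitors tested, 6 fell and 0 rose, or 85.7% lower, against 29.0% of all genes. SERPINB3, SERPINB4 and CST1 had few or no counts in TMEM9 KD and passed the filter through WT, so their direction was largely set by the filter. The 85.7% rests partly on these genes. In all, 4 of the 11 on that list did not pass the filter. CST7, with 13 counts over both TMEM9 KD libraries and 3 over both WT libraries, was among these. CST1, a secreted cystatin, fell by 3.24 on the log2 scale. It had 14 and 4 counts in TMEM9 KD, against 88 and 79 counts in WT, and its log2 fold change was -4.43 without TMEM9 KD replicate 1 and -2.57 without TMEM9 KD replicate 2. The serpin SERPINB4 had 0.305 and 0.172 CPM in TMEM9 KD, against 15.4 and 16.4 CPM in WT, and its near-identical neighbour SERPINB3 had 0 counts in TMEM9 KD, against 10.2 and 10.5 CPM in WT, so reads may have been split between them.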

How the data were processed

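Total RNA was extracted with a column kit and libraries were made with Illumina protocols, per the labels' protocols, which do not state RNA selection, read length or strand. The authors deposited raw counts per Ensembl gene, a column per library. Per the submitters' processing notes, the tools were Bowtie 0.12.2 and CASAVA, and both hg19 and mm8 were named as builds, without roles. The counter and its gene models are not given in the sources used. As the annotation used here (GENCODE 29, GRCh38) is of another build, it gave only names, chromosomes, exon overlaps and exon lengths. Promoters came from RefSeq.

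Counts were fitted with edgeR 4.0.16 in R 4.3.3 (quasi-likelihood F test, TMM, filterByExpr with minimum count 10 and total 15, group as the only term), with Benjamini-Hochberg adjustment over 14923 genes and a threshold of 0.05. The fit had 2 residual degrees of freedom per gene. SE was derived by dividing the size of each log2 fold change by the root of its F statistic. Replicates differed by more than sampling noise (chi-square over degrees of freedom 4.82 in TMEM9 KD and 2.04 in WT). Each library was treated as 1 sample, although this spread does not show that they came from separate cultures. Totals of at least 15323843 counts give little counting error for genes above 10 CPM, where 48 of the 52 lie on average.

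Members, lists and alternatives were chosen with earlier results of these data known. Library values are given for TMEM9, for genes of the list that were called and changed at least 2-fold, and for the highest per length in each class, and for others where a comparison needed them. From each other lysosomal list, up to 3 called genes with the largest change are named, except that some results are not reported here. Alternatives were DESeq2 1.42.0, other scaling, other filters, a test against 1.5-fold, a replicate block, chromosome medians removed and leaving out each library.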

Additional observations from a re-analysis of the deposited data

How the results depend on the processing

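Of the 39 lysosomal genes called, 24 (20 lower, 4 higher) kept call and direction in each alternative other than the test against 1.5-fold, counting a gene removed by the 5 CPM filter as lost. Removing chromosome medians gives no test, and there a change of sign counted as lost. The same genes kept their call in 30 of 39 under DESeq2, 38 with DESeq2 size factors, 39 with upper-quartile factors, 33 with scaling to library size, 37 without a filter, and 28 without WT replicate 1 or without WT replicate 2. TMEM9, GALC, CTSC, CTSS, CTSO, GAA and FUCA1 were called in all of these fits. Counts of lower genes on the list ran from 22 to 30 and of higher genes from 4 to 11 with a library left out, and 6 were higher under DESeq2. The median log2 fold change of the list was -0.28 under DESeq2, with DESeq2 size factors, without a filter and in the replicate block, -0.27 with upper-quartile factors, -0.20 with library size only, -0.25 with at least 5 CPM, -0.22 with chromosome medians removed, and -0.28 to -0.24 with a library left out.

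Against 1.5-fold, 1692 of all genes were lower and 1111 higher, with 7 lower and 1 higher on the list. These were 4 proteases, 2 glycosidases and 1 sulfatase lower and 1 glycosidase higher, with 0 proteases, sulfatases, lipid hydrolases, membrane proteins and sorting receptors higher, and 0 lipid hydrolases, cofactors, membrane proteins and sorting receptors lower. Of the other lysosomal genes, 15 were lower and 0 higher against 1.5-fold, 13 were higher with library size only, and 4 to 11 were higher with a library left out. Under DESeq2, 0 sulfatases were higher, 0 lipid hydrolases lower and 1 membrane protein higher. With library size only, 0 lipid hydrolases were lower and 2 sorting receptors higher. Membrane proteins counted 1 higher with DESeq2 size factors, without a filter and in the replicate block. With a library left out, higher genes numbered 0 to 1 for proteases, 0 to 3 for sulfatases, 0 to 1 for lipid hydrolases, 1 to 2 for membrane proteins and 1 to 2 for sorting receptors, and lower lipid hydrolases 0 to 1.

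Some genes that were not called changed sign. With library size only, log2 fold changes were 0.03 for TPP1, 0.04 for GLA, 0.041 for HEXA, 0.007 for ASAH1 and 0.03 for GRN. With a library left out they ran from -0.31 to 0.20 for HEXA, from -0.038 to 0.14 for MANBA, from -0.13 to 0.033 for GRN and from -0.038 to 0.25 for CTNS. With chromosome medians removed, they were -0.21 for MANBA, -0.026 for AGA, 0.14 for ASAH1, 0.055 for GLA, 0.002 for TPP1 and 0.026 for GRN. LAMP1, which was called lower, turned to 0.20 there. The causes of these changes were not tested. Replicate numbers did not pair the libraries (correlation of deviations 0.000474 between TMEM9 KD replicate 1 and WT replicate 1), and with the replicate block 29 genes of the list were lower and 9 higher, NPC1 being the call lost (edgeR adjusted p = 0.0659). CTSK had at most 55 counts and IDUA at most 30 counts in a library.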

Other observations

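Exon overlap and counts of some lysosomal genes are given side by side, chosen after their values were seen. CD68, a lysosomal glycoprotein used as a macrophage marker, had 1 count over both TMEM9 KD libraries and 0 over both WT libraries, and 81.7% of its exon bases overlap another gene on the same strand in GENCODE 29. SPNS1, a lysosomal lipid transporter, had 22 and 16 counts in TMEM9 KD, against 7 and 16 counts in WT, with 55.4% of its exon bases overlapping. CLN3, the Batten disease protein, had 10 and 6 counts in TMEM9 KD, against 12 and 5 counts in WT, with 25.2% overlapping. LAPTM5, whose exons overlap no other gene, had 9 and 16 counts in TMEM9 KD, against 414 and 636 counts in WT. CTSD, with 41.7% overlapping on the same strand, had 2351 and 2813 counts in TMEM9 KD, against 3550 and 4512 counts in WT. MAN2B1, with 21.2%, had 394 and 438 counts in TMEM9 KD, against 569 and 702 counts in WT. CTSW and ACP5, with 0.1% each and on the opposite strand, and LAMP3, with no overlap, had between 2 and 13 counts in each library. Genes with few counts thus occurred with and without overlap, and its part in any count was not tested.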
